A study of Homo sapiens with 9 samples.

Results

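Ribosomal protein pseudogenes are decayed copies of the genes that encode the proteins of the ribosome. Their members were chosen by symbol alone, as rows named after a large-subunit (RPL), small-subunit (RPS), stalk (RPLP0, RPLP1 and RPLP2) or RPSA gene followed by P and a number. The rule found 165 pseudogenes among the 14839 genes of the table, and all 165 were kept, without a further filter on low values. They were set beside the gene that each symbol is derived from, called the parent here. The 165 pseudogenes had 50 parents, of which 49 were in the table. Thus 164 pseudogenes had a parent to compare with.

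RNA was sequenced from MP41, an established uveal melanoma (UM) line with a mutated GNA11, grown in culture. Cells were collected at 0 h, and at 6, 12, 24, and 48 h after transfection with 66 nM of a synthetic miR-16 or of the control mimic miR-CTR, both with Lipofectamine RNAiMAX. The 0 h library carries the control label, so that there were 5 miR-CTR and 4 miR-16 libraries, with 1 library for each of the 9 conditions. All 9 libraries come from 1 cell line, and no difference below has a replicate check. The value columns are numbered in time without hours, and each was matched to the labelled time of the same rank.

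The ribosome is built of ribosomal RNA and many small proteins, whose short mRNAs belong to the most abundant of a growing cell. Such mRNAs were often copied back into DNA by the LINE-1 machinery of the germ line and inserted elsewhere in the genome. The product, a processed pseudogene, has no introns, has lost the promoter of its parent, and then collects mutations. Because it starts as an exact copy, a short read from a young pseudogene and a read from its parent can hold the same bases.

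The values in the table are on a log2 scale, log2(reads divided by a size factor of the library + 1), called the value in what follows. The low values were whole multiples of 1 step per library, which gave back the reads. They summed to between 20286852 (miR-16 6 h) and 27378083 (miR-CTR 48 h) per library. The 6 h miR-16 library held 84.1% of the reads of its miR-CTR counterpart, the 12 h one 103%, the 24 h one 98.9%, and the 48 h one 80.2%. All 7 melanocyte lineage markers were present, with mean values between 13.04 for DCT, an enzyme of melanin synthesis, and 17.71 for TYRP1, another one. Of 8 markers of fibroblasts, leukocytes, endothelium, and epithelium, only COL1A1 was in the table, with a mean of 8.45. CCND1, CCND3, and WEE1, cell cycle genes known as miR-16 targets, had differences between miR-16 and miR-CTR of -0.63, -1.02, and -1.055 on the log2 scale over 24 and 48 h.

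Of the 165 pseudogenes, 163 were matched to 1 gene of GENCODE version 29 (GRCh38), and RPL19P12 and RPSAP56 were not. The annotation called 149 of them processed pseudogenes, 12 transcribed processed pseudogenes, and 2 transcribed unprocessed pseudogenes. They lay on 24 chromosomes. In 149 of them the exon covered the whole gene, as in a copy without introns. The largest families were those of RPL7 (14 pseudogenes), RPL5 and RPS3A (10 each), and RPSA and RPL21 (8 each). Values of the 1 member on chromosome Y are not reported here, although it is counted.

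The bases of a pseudogene were aligned to the mRNA of its parent, and 4 sets of short stretches are shown because they display how near these copies are. Each is 60 bases of coding sequence, and capitals mark the positions at which a copy differs from the parent. The first set is RPL13A, a protein of the large subunit encoded on chromosome 19, with RPL13AP5 (ENSG00000236552.2, chr10:96750477-96750536, forward strand) and RPL13AP25 (ENSG00000136149.6, chr13:54441067-54441126, reverse strand). In this stretch RPL13AP5 had 1 and RPL13AP25 had 6 differences.
RPL13A: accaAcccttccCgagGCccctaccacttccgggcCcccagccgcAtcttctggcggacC
RPL13AP5: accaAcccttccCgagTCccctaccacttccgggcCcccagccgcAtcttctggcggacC
RPL13AP25: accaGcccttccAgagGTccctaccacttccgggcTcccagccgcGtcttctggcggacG

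The second set is RPS18, a small-subunit protein encoded on chromosome 6, with RPS18P12 (ENSG00000230897.1, chr17:14705238-14705297, reverse strand), which had 5 differences. The third is RPLP0, the base of the ribosomal stalk, encoded on chromosome 12, with RPLP0P6 (ENSG00000213553.4, chr2:38482409-38482468, forward strand), which had 3.
RPS18: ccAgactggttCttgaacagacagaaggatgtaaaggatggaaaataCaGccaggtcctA
RPS18P12: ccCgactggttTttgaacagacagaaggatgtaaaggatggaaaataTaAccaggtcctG
RPLP0: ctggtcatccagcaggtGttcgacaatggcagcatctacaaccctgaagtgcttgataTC
RPLP0P6: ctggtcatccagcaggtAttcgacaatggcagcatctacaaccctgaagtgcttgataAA

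The fourth is RPL41, whose protein of 25 residues is among the shortest known. Its first 60 coding bases were identical in RPL41P1 (ENSG00000227063.5, chr20:21755270-21755329, forward strand) and RPL41P2 (ENSG00000256338.2, chr15:28315693-28315752, forward strand), so that no capitals appear.
RPL41, RPL41P1 and RPL41P2: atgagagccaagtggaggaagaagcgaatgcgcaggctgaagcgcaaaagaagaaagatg

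Over the whole alignment, the median identity to the parent was 95.8%, and it ranged from 67.2% to 100%. The lowest identities, 67.2% in RPL7P21 and 68.2% in RPL7P22, belonged to pseudogenes of which 29.9% and 25.9% could be aligned. Among the windows of 50 bases along a pseudogene, a median of 26.3% occurred in a transcript of another gene. In 4 pseudogenes every such window did, RPL41P1 and RPL39P3 among them. How reads that match several places were counted is not given in the sources used here. The longest reading frame from an ATG was at least as long as the longest annotated coding sequence of the parent in 28 of the 163 pseudogenes. These had a median mean value of 9.50, against 6.64 in the other 135. The split depends on the annotated transcripts of the parent: RPL9P7, with 99.7% identity, has a frame of 192 codons, and RPL9 was taken with 220.

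Together the pseudogenes took between 0.695% (miR-CTR 0 h) and 0.896% (miR-16 48 h) of the reads of a library, and the 86 cytosolic ribosomal protein genes between 5.49% and 6.78%. Most pseudogenes were weakly expressed. With all genes of the table divided into 4 bins of nearly equal size by their mean value over the 9 libraries, 84 pseudogenes were in the lowest bin, 36 in the second, 19 in the third, and 26 in the highest.

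The highest mean values belonged to RPL7P9, RPLP0P6, RPL6P27, RPS3AP6, RPL7P23, RPL18AP3, RPL4P4, RPS2P46, RPS3AP26, and RPSAP58, between 14.55 and 12.39. RPL7P9, a copy of the large-subunit gene RPL7 on chromosome 1 with an identity of 99.7%, ranked 75th among all genes. Its values were 14.49, 14.41, 14.44, 14.52, and 14.54 at 0, 6, 12, 24, and 48 h under miR-CTR, and 14.52, 14.56, 14.62, and 14.88 at 6, 12, 24, and 48 h after miR-16. The 48 h miR-16 library was the highest. RPLP0P6 had values of 13.31, 13.30, 13.31, 13.44, and 13.43 under miR-CTR, and of 13.72, 13.44, 13.75, and 13.75 after miR-16. In the 6, 24, and 48 h miR-16 libraries it was thus above every miR-CTR library, and its 12 h miR-16 value equalled the 24 h miR-CTR value. RPSAP58, a copy of the gene for the small-subunit protein RPSA on chromosome 19, was the most even of the 10, between 12.33 and 12.45.

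Levels of a pseudogene and its parent were compared per length, as reads per kilobase of exon. Taken over the union of all annotated exons, the median pseudogene stood at 6.02% of its parent (n = 162), and 17 pseudogenes exceeded it. The union of exons of these parents is longer than their longest coding transcript. Over the shortest transcript with the longest annotated coding sequence, taken as the main mRNA of the parent, the median was 1.39%, and only 3 exceeded the parent. These were RPL41P1, with 415%, RPS23P8, with 142%, and RPL36AP26, with 139%. For RPS23 the shortest such transcript is 3437 bases long for 143 codons, so that the 142% rests on a long parent length. RPS23P8 had 2200 to 3331 reads per library where RPS23 had 14467 to 22847. RPL36AP26 had 83 to 281 reads per library where RPL36A had 250 to 374. With a mean value of 8.24, RPL36A was the lowest of the parents in the table, so that the 139% rests on a parent with few reads. By the union of exons, the 5 highest shares were those of RPL41P1 (963%), RPL36AP26 (627%), RPL39P3 (502%), RPL18AP3 (318%), and RPL14P1 (240%), and with the main mRNA RPL39P3 stood at 94.1% and RPL14P1 at 25.4%.

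The level was highest in the copies nearest to the parent. In the 34 pseudogenes of 98% identity or more, the median level was 24.7% of the main mRNA of the parent and the median mean value 11.51. The corresponding figures were 1.76% and 6.87 in the 64 pseudogenes between 95% and 98%, and 0.413% and 5.91 in the 54 between 90% and 95%. The 11 pseudogenes under 90% had a median level of 0.32% and a median mean value of 6.64. By the union of exons the median level was 1.56% under 90% and 1.04% between 90% and 95%, so that below 95% the order depended on the measure. Reads of a parent that were assigned to its copy and transcripts of the copy itself cannot be told apart in these values.

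**Figure D1:**
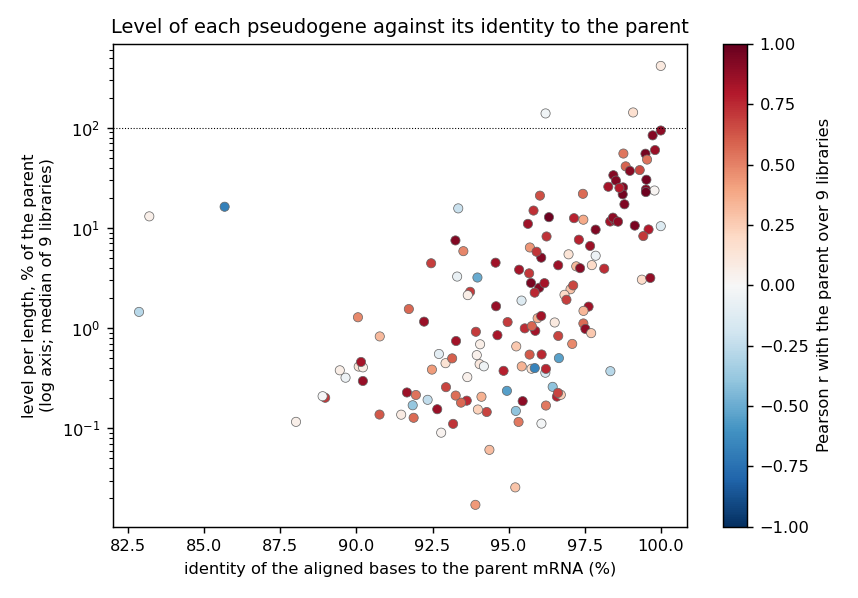
Level per length of each pseudogene as a percent of the main mRNA of its parent (log axis, median of the 9 libraries) against its identity to the parent (percent), coloured by the Pearson correlation with the parent over the 9 libraries. The dotted line marks the level of the parent. The 34 pseudogenes of 98% identity or more had a median of 24.7%, and RPL41P1, RPS23P8, and RPL36AP26 lie above the line with pale colours. RPS23P8 has a parent length of 3437 bases, and the parent of RPL36AP26 has the lowest mean value of the parents (8.24). RPL7P21 and RPL7P22, under 70% identity, and the member on chromosome Y are not drawn.

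The 9 values of each pseudogene were then correlated with those of its parent. The libraries are different conditions of 1 time course, so that the correlations are a description and carry no p. The median Pearson r was 0.59 (n = 164), 47 pseudogenes had an r above 0.8, and 25 an r below 0. With the parents of other pseudogenes the median r was 0.46, and the own parent ranked first among the 49 for 15 pseudogenes. The median r with the parent was 0.44 in the lowest bin of mean value, 0.59 in the second, 0.84 in the third, and 0.89 in the highest. The median r with the parents of other pseudogenes rose too, at 0.32, 0.47, 0.52, and 0.69 in the same order. By identity, the median r with the own parent was 0.87 at 98% or more and 0.63 between 95% and 98%. It was 0.49 between 90% and 95%, and -0.01 under 90%.

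The closest pairs, among the 104 pseudogenes with at least 50 reads in every library, were RPL13AP5 with RPL13A (r = 0.98), RPL4P5 with RPL4 (0.98), RPS2P5 with RPS2 (0.97), and RPL3P4 with RPL3 (0.96). RPL13A had values of 14.13, 14.15, 14.16, 14.17, and 14.52 under miR-CTR, and of 14.16, 14.22, 14.28, and 14.51 after miR-16. RPL13AP5 had 11.88, 11.89, 11.97, 11.91, and 12.28 under miR-CTR, and 11.90, 12.01, 12.10, and 12.31 after miR-16. Both were highest in the 2 libraries of 48 h.

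The lowest correlations in the same 104 were those of RPL12P38 (r = -0.55), RPL7P21 (-0.48), RPL26P30 (-0.28), and RPL17P50 (-0.22). In RPL12P38, RPL7P21, and RPL26P30, only part of the transcript, 39% at most, could be aligned to the parent. Their values stayed within 7.03 to 7.50, apart from 6.87 in the 48 h miR-16 library, for RPL12P38, within 7.13 to 7.68 for RPL7P21, and within 7.29 to 7.92 for RPL26P30. RPL23AP82, a copy of RPL23A on chromosome 22 with 8 annotated transcripts, of which 17.3% could be aligned, ranged from 8.18 to 8.56 (r = 0.06).

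Some near-identical and abundant copies did not move with their parent. They were named after their values were seen. RPS23P8, with an identity of 99.1% to the small-subunit gene RPS23, had values of 11.16, 11.19, 11.24, 11.37, and 11.28 under miR-CTR, and of 11.56, 11.25, 11.62, and 11.78 after miR-16 (r = 0.16). RPS23 itself stayed between 14.02 and 14.26. RPL21P75, with 99.8% identity to RPL21, ranged from 10.98 to 11.44 (r = 0.02). RPL41P1, with 100% identity to RPL41, had an r of 0.09 and is described with the falls below.

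Many pseudogenes lie inside other genes, and the strand of the counting is not given in the sources used here. Of the 163, 91 overlapped another annotated gene on either strand and 72 overlapped none. A protein-coding gene contained 60 of them, 15 on its own strand and 45 on the opposite one, and the exons of 3 overlapped an exon of that gene. In 47 cases this host gene was in the table. The median r of these 47 was 0.01 with the host and 0.69 with the parent, and 40 of the 47 had a higher r with the parent. Over all 164 pseudogenes, the median r with the parents of others was 0.46, and it was not taken for these 47 alone. RPL7P23 lies within WDR41, RPL18AP3 within TXNRD1, RPL4P4 within MAP3K13, RPS3AP26 within BAIAP2L1, RPS2P5 within TAOK3, RPL7P21 within NR3C1, RPL39P3 within OOEP, and RPL29P2 within DNAH2.

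The response to miR-16 was taken as the miR-16 value minus the miR-CTR value at the same time (logFC). The late logFC is the mean of 24 and 48 h, the early logFC the mean of 6 and 12 h, and 0.5 was the threshold for a call. Late after miR-16, 32 of the 165 pseudogenes (19.4%) were above 0.5, against 7.76% of all genes, and 8 (4.85%) were below -0.5, against 5.73% of all genes. The median late logFC was 0.18 in the pseudogenes and 0.005 in all genes. The 789 other pseudogenes of the table had 72 above and 73 below, with a median of 0.01. None of the 49 parents and none of the 86 ribosomal protein genes passed 0.5 in either direction, and their medians were 0.095 and 0.0825. For every one of the 32 and the 8, the 95% interval from counting error alone excluded 0. These were picked for a large logFC, and the same share over all called genes was not counted. The interval is also too narrow for the variation between libraries. In the lowest bin of mean value the variance of the pseudogene reads was a median of 2.93 times that of counting error, with changes of time and mimic included. In bulk RNA, fewer cells with a transcript and less of it per cell cannot be told apart.

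**Figure D2:**
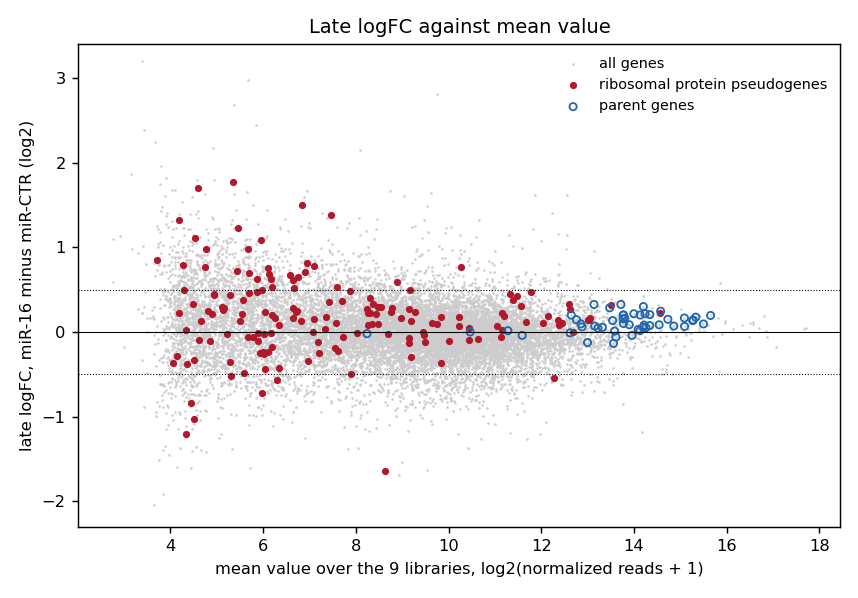
Late logFC (miR-16 minus miR-CTR, mean of 24 and 48 h, log2) against the mean value over the 9 libraries for all genes (grey), the ribosomal protein pseudogenes (red, without 2 that are not described), and their parents (blue circles). Dotted lines mark 0.5 and -0.5. The parents lie between these lines, and most pseudogenes above the upper line have a low mean value.

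The rises were mostly in weakly expressed copies. In the lowest bin of mean value 27 of 84 pseudogenes (32.1%) were above 0.5, beside 19.1% of all genes and 12.1% of other pseudogenes of that bin. Below -0.5 were 6 of the 84 (7.14%), beside 8.52% of all genes there. In the second bin 4 of 36 were above 0.5, beside 6.39% of genes, in the third 1 of 19, beside 3.13%, and in the highest 0 of 26, beside 2.37%. In that highest bin the late logFC was nevertheless positive in 23 of 26 pseudogenes, with a median of 0.155. By identity, the 32 rises were 15 between 95% and 98%, 15 between 90% and 95%, 1 under 90%, and 1 without annotation, and none was among the 34 of 98% or more.

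Taken against the parent, the pseudogenes were less one-sided. The late logFC of a pseudogene minus that of its parent had a median of 0.04, with 22 of 164 above 0.5 and 15 below -0.5, and was positive in 89.

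The share past 0.5 differed between the 4 times. At 6 h, 36 pseudogenes (21.8%) were above 0.5 and 19 (11.5%) below -0.5, against 3.38% and 3.34% of all genes. At 12 h, 8 (4.85%) were above and 6 (3.64%) below, against 3.31% and 2.53%. At 24 h, 26 (15.8%) were above and 9 (5.45%) below, against 7.24% and 5.26%. At 48 h, 41 (24.8%) were above and 17 (10.3%) below, against 10.4% and 8.96%. In the lowest bin of mean value alone, the counts above and below at 6 h were 30 and 13 of 84, where all genes of that bin gave 11.7% each way and the pseudogenes 35.7% and 15.5%. At 12 h they were 8 and 5 (9.52% and 5.95%, all genes of the bin 10.5% and 7.57%). At 24 h they were 21 and 7, beside 19.8% and 10.6% of the genes of the bin, and at 48 h 33 and 12 (39.3% and 14.3%), beside 24.0% and 13.0%. Of the 789 other pseudogenes, 12.5% were above and 8.87% below at 6 h, and 13.2% and 13.8% at 48 h. The early logFC put 18 above (10.9%, all genes 2.04%) and 7 below (4.24%, all genes 1.45%). In both directions the counts were highest at 48 h and 6 h. At these times the miR-16 library held 80.2% and 84.1% of the reads of its miR-CTR counterpart. At 12 and 24 h it held 103% and 98.9%. Time, mimic, and depth cannot be told apart with 1 library per condition, and the part of depth was not tested. At both 24 and 48 h, 20 pseudogenes were above 0.5 and 5 below -0.5, a rule that was not counted over all genes.

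**Figure D3:**
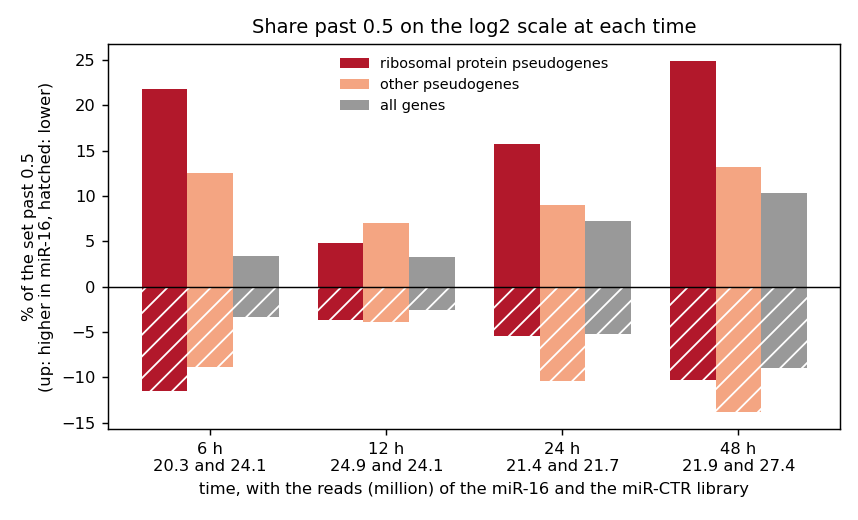
Percent of the 165 ribosomal protein pseudogenes, of the 789 other pseudogenes, and of all 14839 genes with a logFC above 0.5 (plain bars, upward) or below -0.5 (hatched bars, downward) at each time. The reads of the miR-16 and the miR-CTR library stand under each time. At 12 h 4.85% of the ribosomal protein pseudogenes were above 0.5, and at 48 h 24.8%.

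The calls were also set beside the depth of the libraries. Over the 9 libraries, the correlation of a pseudogene with the log2 reads of the library was negative in all 32 pseudogenes above 0.5, between -0.36 and -0.86 with a median of -0.69. Among all 1151 genes above 0.5 late, 87.1% had a negative correlation, with a median of -0.36, and among the 72 other pseudogenes above 0.5 it was 88.9%, with a median of -0.53. Of the 8 pseudogenes below -0.5, 6 had a correlation with the reads above 0.7, beside 34 of the 851 genes that were below. The late logFC subtracts the 48 h miR-CTR library, the deepest of the 9. Choosing by it therefore favours a negative correlation with the reads in rises and a positive one in falls. The values were already divided by the size factor of the library, and the part of depth in these calls was not tested.

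**Figure D4:**
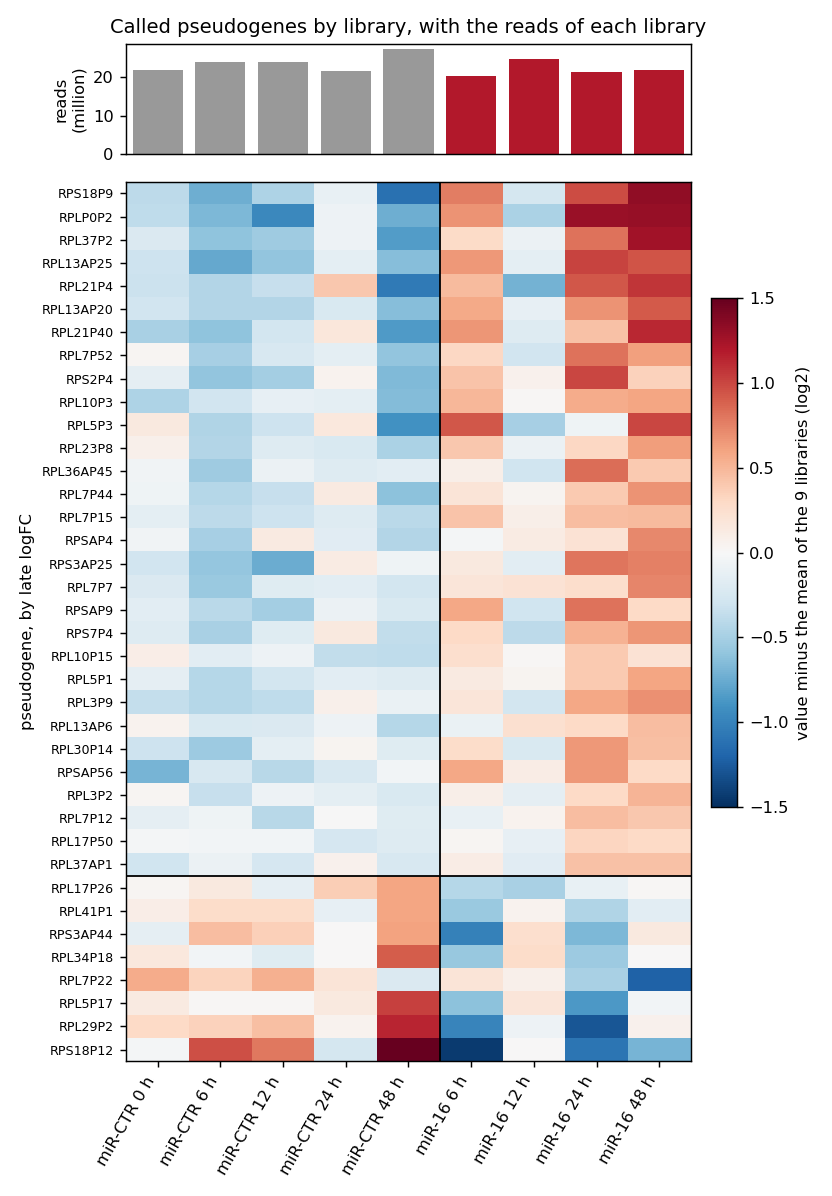
Values of 38 of the called pseudogenes, each minus its mean over the 9 libraries (log2), ordered by late logFC. The bars on top give the reads of each library. The pseudogenes above the horizontal line rose, with their highest values mostly in the 6, 24, and 48 h miR-16 libraries, and most of those below it were highest in the 48 h miR-CTR library, the deepest with 27378083 reads.

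Against the 0 h library, the pseudogenes changed little with miR-CTR. In the late miR-CTR libraries 9 were above 0.5, or 5.45%, where all genes gave 11.0%, and 3 were below -0.5, or 1.82%, where all genes gave 9.79%. The median was 0.105. In the late miR-16 libraries 45 were above (27.3%, all genes 14.1%) and 7 below (4.24%, all genes 11.7%), with a median of 0.295. Both comparisons share the 0 h library. The 49 parents rose by a median of 0.125 with miR-CTR and 0.235 with miR-16.

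In 66 of the 165 pseudogenes (40.0%) both late miR-16 values lay above all 5 miR-CTR values, against 12.1% of all genes, 11.9% of other pseudogenes, and 20.4% of the parents (10 of 49). By bin of mean value, from the lowest, these were 37 of 84, 13 of 36, 3 of 19, and 13 of 26, beside 15.2%, 13.9%, 10.6%, and 8.57% of all genes. All 4 miR-16 values lay above all 5 miR-CTR values in 13 pseudogenes (7.88%, all genes 1.81%), and all 4 lay below in none (all genes 2.46%).

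Among the pseudogenes described here, the largest rises of those past 0.5 at both late times were in RPS18P9, RPLP0P2, RPL37P2, and RPL13AP25. RPL13AP25 had values of 7.15, 6.69, 6.87, 7.31, and 6.82 under miR-CTR, and of 8.11, 7.31, 8.48, and 8.41 after miR-16. Its late logFC was 1.38, with a counting standard error (SE) of 0.10, from 107 to 339 reads per library. It was 1.17 at 24 h and 1.59 at 48 h. The 12 h miR-16 value was the same as the 24 h miR-CTR value, and the other miR-16 values were above all miR-CTR values. The parent RPL13A had a late logFC of 0.05, and RPL13AP20, from the same family, one of 1.23.

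RPL37P2, a copy of the large-subunit gene RPL37 on chromosome 11, had values of 6.62, 6.23, 6.31, 6.76, and 6.00 under miR-CTR, and of 7.12, 6.75, 7.65, and 8.10 after miR-16, a late logFC of 1.495 (counting SE 0.13). It was 0.89 at 24 h and 2.10 at 48 h. RPL37 had a late logFC of 0.215.

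RPLP0P2 on chromosome 11, a pseudogene with 6 annotated transcripts, of which 31.0% could be aligned to RPLP0, had values of 4.22, 3.93, 3.64, 4.53, and 3.87 under miR-CTR, and of 5.28, 4.13, 5.90, and 5.91 after miR-16. Its late logFC was 1.705 (counting SE 0.27). RPS18P9, on chromosome 6 and overlapping KATNA1 on the opposite strand, had values of 4.96, 4.63, 4.89, 5.24, and 4.24 under miR-CTR, and of 6.13, 5.09, 6.34, and 6.69 after miR-16. Its late logFC was 1.775 (counting SE 0.22), from 1.10 at 24 h and 2.45 at 48 h, and RPS18 had one of 0.095. In RPLP0P2 and RPS18P9 alike, the 12 h miR-16 library lay within the range of miR-CTR.

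RPL7P15 was the only rise above the second bin of mean value, with 989 to 1631 reads per library. Its values were 10.13, 9.88, 9.97, 10.08, and 9.87 under miR-CTR, and 10.71, 10.36, 10.74, and 10.75 after miR-16, a late logFC of 0.77 (counting SE 0.04). All 4 miR-16 libraries were above all 5 miR-CTR libraries. It lies within KALRN on the opposite strand, has 92.5% identity to RPL7, and shared 17.8% of its windows of 50 bases with another gene.

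The falls were fewer. RPS18P12, on chromosome 17, overlapped no other gene, and 8.8% of its windows of 50 bases occurred elsewhere. Its values were 8.61, 9.61, 9.43, 8.38, and 10.39 under miR-CTR, and 7.20, 8.65, 7.55, and 7.94 after miR-16. Its late logFC of -1.64 (counting SE 0.08) came with a range of 2.01 between the miR-CTR libraries themselves. The 12 h miR-16 value lay inside that range, and the other 3 were below it. The logFC was -0.83 at 24 h and -2.45 at 48 h, and against the 0 h library in place of the late miR-CTR libraries it was -0.865. Its correlation with the log2 reads was 0.91, and with RPS18 it was 0.10.

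RPL41P1 was the fall with the highest level. It had values of 12.38, 12.55, 12.55, 12.15, and 12.87 under miR-CTR, and of 11.72, 12.33, 11.82, and 12.12 after miR-16, a late logFC of -0.54 (counting SE 0.02) and a correlation of 0.90 with the log2 reads. It passed -0.5 at 48 h (-0.75) and not at 24 h (-0.33). RPL41P2 has the same coding bases in the stretch printed above. Its values were 11.54, 11.44, 11.47, 11.70, and 11.68 under miR-CTR, and 11.97, 11.85, 12.14, and 12.18 after miR-16, a late logFC of 0.47. All 4 of its miR-16 values were above all 5 miR-CTR values. The parent RPL41 had a late logFC of 0.095.

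Besides RPS18P12, the falls past -0.5 at both times were in RPL29P2, RPL5P17, RPL7P22, and RPL34P18. They are named after large-subunit genes and had 7 to 137 reads per library. RPL29P2 had a late logFC of -1.205 (counting SE 0.36), with values of 4.64, 4.69, 4.79, 4.39, and 5.48 under miR-CTR, and of 3.35, 4.27, 3.06, and 4.40 after miR-16. RPL5P17 had one of -1.03 (counting SE 0.32), RPL7P22 one of -0.84 (counting SE 0.37), and RPL34P18 one of -0.725 (counting SE 0.18). In RPL29P2, RPL5P17, and RPL34P18 the 48 h miR-CTR library was the highest of all, and in RPL7P22 the 0 h library was. RPS3AP44, RPL17P26, and RPL41P1 were past the threshold in the mean and at 1 of the 2 times.

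**Figure D5:**
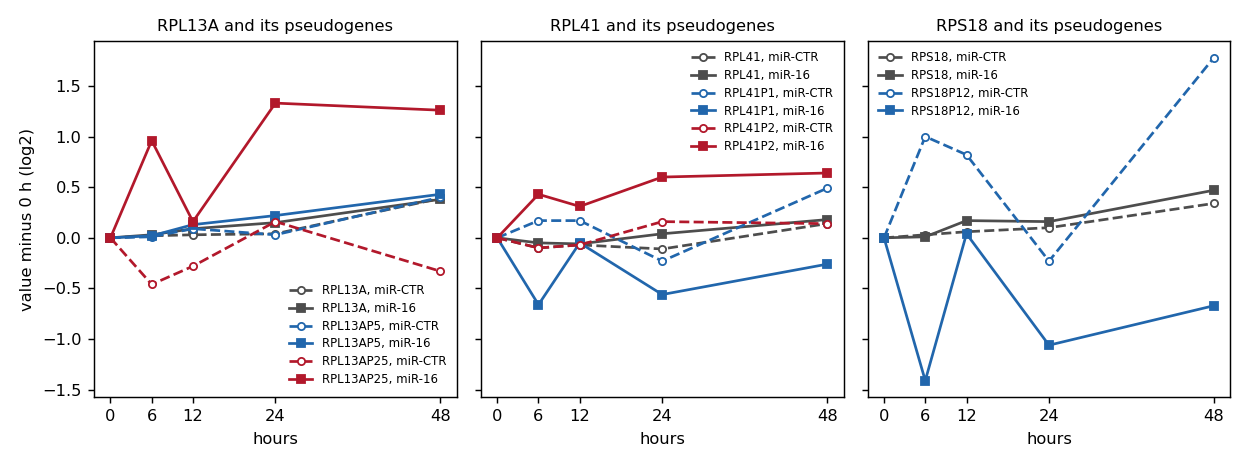
Value minus the 0 h value (log2) over time for RPL13A, RPL41, and RPS18 (grey) and their pseudogenes (blue and red), with miR-CTR as dashed lines and open circles and miR-16 as solid lines and squares. There is 1 library per point. RPL13AP5 lies along RPL13A and RPL13AP25 above it with miR-16, RPL41P1 and RPL41P2 part after miR-16, and RPS18P12 ends lower with miR-16 and higher with miR-CTR.

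Pseudogenes named after 1 parent could lie on both sides of the thresholds. The 14 named after RPL7 had 5 late logFC above 0.5 and 1 below -0.5, where RPL7 had 0.175. The 1 below was RPL7P22, with 68.2% identity over the 25.9% of it that could be aligned to RPL7. The summed reads of the 14 came to 92.6% of the reads assigned to RPL7, without correction for length. The 10 copies of RPS3A, with 91.0% of the reads of RPS3A, had 1 above and 1 below. The 10 copies of RPL5 held 7.27% of the reads of RPL5, a protein that binds the 5S rRNA, with 2 above and 1 below. The 8 copies of RPSA had 3 above, the 6 copies of RPL13A had 3 above, and the 8 copies of RPL21 had 2 above, with none below in these 3 families. RPSA itself had a late logFC of 0.325, with RPL39 the highest of the parents. In the RPL21 family the median r with the parent was -0.26, and in the RPL4 family, with 3 copies, it was 0.92.

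The SD over the 9 libraries was similar to that of all genes of like level, while the spread of the reads was larger in pseudogenes of the highest bin. The SD of the 9 values had a median of 0.36 in pseudogenes of the lowest bin, beside 0.36 in all genes there, and of 0.18 in the highest bin, beside 0.17. The variance of the reads over the variance that counting error gives was 2.93 and 2.68 in the lowest bin, and 64.4 and 41.2 in the highest, for pseudogenes and all genes. The 9 libraries are different conditions, so that this ratio holds changes with time and mimic as well as error.

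Finally, matches to the seed of miR-16 were sought in the transcripts of the pseudogenes, on their own strand. A miRNA binds mainly through the bases 2 to 8 of its 5′ end, the seed, which is in capitals in the mature sequence from RefSeq.
miR-16: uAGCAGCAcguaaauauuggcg

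A match to the seed reads TGCTGCT (7mer-m8), or TGCTGCTA with an A opposite the first base (8mer, counted as such and not as a 7mer-m8). Either was found in 23 of the 163 pseudogenes, 10 with an 8mer and 13 with a 7mer-m8 alone, and 20 of the 23 had a parent with one too. Among all processed pseudogene transcripts of 400 to 1000 bases in GENCODE that are no ribosomal protein copies, 12.6% held one. Among those of the same lengths with a symbol of the rule used here, 138 of 733 (18.8%) did. The 163 were not limited in length, and their share within these lengths was not counted. RPL14P1 on chromosome 12 held 1 8mer and 8 7mer-m8 in a run of repeats, part of which is shown with the 8mer in capitals (chr12:62965784-62965813, forward strand).
RPL14P1: gctgctgctgcTGCTGCTAaagttccagca

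RPL14P1 had values of 11.08, 11.14, 11.08, 11.12, and 11.17 under miR-CTR, and of 11.33, 11.06, 11.11, and 11.05 after miR-16, a late logFC of -0.065, and RPL14 had one of -0.06. The other copy, RPL14P3, had one of -0.175. Of the 10 copies of RPL5 9 held a match: RPL5P1 (0.67), RPL5P3 (0.85), RPL5P4 (-0.025), RPL5P9 (0.15), RPL5P12 (0.33), RPL5P17 (-1.03), RPL5P23 (-0.015), RPL5P29 (0.49), and RPL5P34 (0.165), with the late logFC in parentheses. Of the 8 copies of RPSA 7 did: RPSAP4 (0.77), RPSAP9 (0.71), RPSAP14 (0.245), RPSAP15 (0.285), RPSAP53 (-0.025), RPSAP54 (0.13), and RPSAP58 (0.085). The remaining ones were RPLP0P2 (1.705), RPLP0P6 (0.315), RPL21P40 (1.115), RPL4P5 (0.19), and RPL12P38 (-0.12).

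The median late logFC of the 23 was 0.19, with 6 above 0.5 and 1 below -0.5, and that of the 140 without a match was 0.175. The 10 with an 8mer had a median of 0.075, with 2 above and 1 below. Of all 165 pseudogenes, 19.4% were above and 4.85% below, and of all genes 7.76% and 5.73%. A match is a string of letters in an annotated transcript, and binding was not measured in these libraries.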

How the data were processed

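Per the labels and the study's methods, RNA of MP41 cells was sequenced in 9 libraries, 1 per condition. The submitters' processing notes name FastQC, STAR 2.4.0a, featureCounts (Subread 1.5.0-p3), and hg38/GRCh38. The treatment of multiply mapped reads, strand, and the filter on genes are not given in the sources used here. The authors deposited normalized log2 values, 1 per gene and library. The reads were recovered from values under 15 normalized reads, 100% of which were whole within 0.1 of a step (215 to 361 values per library). The columns carry the time numbers T0, T1, T2, T4, and T5, which were matched to the labelled times by rank within each mimic.

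The pseudogenes and lists were chosen with earlier results of these data known. Named were the 10 highest mean values, the 6 largest rises and the 5 falls past 0.5 at both late times, the 4 highest and lowest correlations with the parent (at least 50 reads per library), the 5 highest levels relative to the parent, pseudogenes with an 8mer or 7mer-m8, and RPL23AP82, RPSAP58, RPLP0P6, RPL13AP5, and RPS2P5. RPS23P8, RPL21P75, RPL41P2, RPL7P15, RPL13AP20, RPS3AP44, and RPL17P26 were named after seeing their values. Of the largest rises, 2 are not reported here. With 1 library per condition no test was made. Counting SEs cover counting error only. Sequences came from GENCODE version 29 transcripts, joined by symbol, and were aligned locally (match 2, mismatch -3, gap opening -5, extension -2) with biopython 1.88. Calls and read recovery were tested on simulated counts. These held counting error alone and planted changes away from the lowest levels, so that the error rate of the real calls was not tested. Python 3.11.15, numpy 2.4.6, pandas 2.3.3, scipy 1.17.1, and matplotlib 3.10.9 were used.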

Additional observations from a re-analysis of the deposited data

How the results depend on the processing

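No replicate block was fitted, since each condition has 1 library. The logFC is itself the difference within a time, and a test over the 4 times as pairs was not made. The processing was varied by a pseudocount of 5, libraries centred on the median gene, and quantile normalization. Last, pseudogenes sharing 50% or more of their windows were left out, which was added after seeing the data. In this order the 32 late rises became 32, 32, 31, and 30, the last of 117 pseudogenes. The 8 late falls became 7, 8, 11, and 7. Under the first 3, all genes above 0.5 numbered 1045, 1199, and 996 of 14839, beside 1151 before. All genes below -0.5 numbered 784, 808, and 1002, beside 851 before. The 4 largest rises described and the 5 falls past the threshold at both times kept their sign under each of the first 3.

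Counts of late rises and falls were 5 and 2 of 81 above the lowest 25% of mean value. They were 20 and 5 with the threshold passed at both times, a rule that was not counted over all genes. Among pseudogenes overlapping no gene they were 18 and 4 of 72. Falls numbered 5 at 1.5-fold and 17 at 48 h alone. Relative to the parent, rises and falls were 4 and 3 above the lowest 25%, 11 and 7 at both times, and 13 and 8 without overlap, with 9 falls at 1.5-fold. Above the lowest 25%, early counts were 3 and 2, miR-CTR late against 0 h 2 and 0, miR-16 late against 0 h 12 and 1, and 29 of 81 had both late miR-16 values above miR-CTR (27 of 72 without overlap). The 25% and overlap settings count fewer pseudogenes. In the bins of mean value above the lowest 25%, in rising order, all genes gave 6.39%, 3.13%, and 2.37% late rises. Late falls there were 4.61%, 5.37%, and 4.45% of all genes. For the early logFC, all genes gave 0.431%, 0.809%, and 0.350% above, and 0.593%, 0.297%, and 0.216% below. For late miR-CTR against 0 h, they gave 11.5%, 6.82%, and 5.98% above, and 8.46%, 7.74%, and 6.82% below. For late miR-16 against 0 h, all genes gave 14.7%, 7.90%, and 6.28% above. Below, they gave 10.1%, 11.5%, and 11.4%. Both late miR-16 values lay above miR-CTR in 13.9%, 10.6%, and 8.57%. The overlap setting was not counted over all genes.

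The median r with the parent was 0.47 to 0.69 with 1 library left out, lowest without miR-16 48 h and highest without miR-CTR 48 h, 0.72 in the 4 miR-16 libraries, and 0.72 with at least 50 reads (n = 104). The median level per length was 2.50% by the longest transcript and 1.39% by the main mRNA. The main mRNA, the 25% setting for miR-16 against 0 h, and both settings for the late miR-16 values above miR-CTR were also added after seeing the data. Seed matches were 10 (8mer alone) and 61 (with 7mer-A1 and 6mer). The variance ratio was 10.1 with at least 50 reads.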
